A study of Mus musculus with 2 samples.

Results

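The granule genes of neutrophils were followed in long-term hematopoietic stem cells (LT-HSCs) of aged mice. The 10 genes are *Elane*, *Mpo*, *Prtn3* and *Ctsg*, whose products fill the primary granules, and *Ltf*, *Camp*, *Ngp*, *Lcn2*, *S100a8* and *S100a9*, which are made later in neutrophil maturation. They were taken by gene name from 17194 measured genes (a signal well above background on 1 array or both), and all 10 passed that filter, through 12 probes. They were chosen on the log2 difference between the 2 arrays that is given here, so every difference between the arrays is a description of these genes and supports nothing about them.

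LT-HSCs were sorted from bone marrow of 2-year-old C57BL/6J mice and their RNA was hybridized to single-color Agilent mouse arrays, 1 array per genotype (2 arrays in all, on 1 slide). The *p38αΔ/Δ* mice carried floxed p38α alleles and CAG-CreERT2, a tamoxifen-activated Cre under a ubiquitous promoter, and had received tamoxifen about 1 year before analysis, so that deletion was not limited to blood cells. The *p38α+/+* controls were age-matched, tamoxifen-injected, Cre-negative mice that also carried the floxed alleles. The labels give the gate as CD150+CD48-Flt3-CD34- cells among lineage-negative Sca-1+c-Kit+ cells, the methods add CD41-, and the antibodies against lineage markers included Mac-1 and Gr-1, which mark granulocytes, and CD4, CD8, B220 and TER-119, which mark T, B and erythroid cells. The number of mice behind each array is not given in the sources used here. With 1 array per genotype no spread between mice can be given, no test was run, and the errors below cover only the reading of an array.

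*Mapk14*, which encodes p38α, differed by -0.04 and -0.05 on the log2 scale (*p38αΔ/Δ* minus *p38α+/+*) at its 2 probes. Whether either probe lies in the deleted part is not known here, and a probe outside it checks nothing. The second array is therefore called the array labelled *p38αΔ/Δ*. The sex genes did not run one way. The Y-linked *Ddx3y*, *Eif2s3y* and *Uty* were well above background on both arrays and differed by 0.41, 0.41 and 0.73 (the other *Uty* probe by -0.18), whereas the Y-linked *Kdm5d* was not well above background on the second array and was at least 2.70-fold lower. *Xist*, of the inactive X chromosome, differed by -2.23 at its brightest probe and by up to 2.98 at the others. Whether the sexes of the mice differed between the arrays was not tested.

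Neutrophils fill their granules in the order in which the proteins are made. Promyelocytes make the serine proteases and myeloperoxidase of the primary (azurophil) granules, and myelocytes and later cells make lactoferrin, cathelicidin and the other proteins of secondary granules, along with the S100 proteins of the cytosol. Transcription factors of the ETS and C/EBP families are textbook regulators of both programs, with C/EBPε needed for the secondary granule genes. Stem and progenitor cells can hold low levels of primary granule transcripts before any granule is formed.

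The sequences upstream of the genes are shown first, because the choice of genes did not use them. Most genes of each group share letters there, but these letters were picked after the sequences had been seen. Each sequence is the 250 bases before the annotated start (RefSeq, GRCm38.p6), 5′ to 3′ along the gene. Capitals mark GGAAGT, the letters of an ETS-type site, extended to GAGGAAGT where the longer form matched, and TTNNGNAA, the letters of a C/EBP-type site, on either strand. The first 3 genes below are primary granule genes and the last 3 are late genes. Not printed are the sequences of *Ctsg*, which lacks GAGGAAGT, of *Camp*, which lacks TTNNGNAA, and of *Lcn2* and *S100a8*.
Elane promoter, chr10:79886062-79886311, + strand: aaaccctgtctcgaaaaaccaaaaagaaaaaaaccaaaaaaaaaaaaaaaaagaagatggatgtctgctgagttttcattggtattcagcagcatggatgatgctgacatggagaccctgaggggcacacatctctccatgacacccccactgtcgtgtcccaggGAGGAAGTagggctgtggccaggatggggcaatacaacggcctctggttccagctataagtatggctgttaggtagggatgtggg
Prtn3 promoter, chr10:79879417-79879666, + strand: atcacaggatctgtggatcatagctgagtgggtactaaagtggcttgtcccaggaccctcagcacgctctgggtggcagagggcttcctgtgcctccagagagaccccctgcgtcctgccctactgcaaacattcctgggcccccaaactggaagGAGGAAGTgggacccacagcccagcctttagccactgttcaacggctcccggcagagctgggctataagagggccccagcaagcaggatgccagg
Mpo promoter, chr11:87793534-87793783, + strand: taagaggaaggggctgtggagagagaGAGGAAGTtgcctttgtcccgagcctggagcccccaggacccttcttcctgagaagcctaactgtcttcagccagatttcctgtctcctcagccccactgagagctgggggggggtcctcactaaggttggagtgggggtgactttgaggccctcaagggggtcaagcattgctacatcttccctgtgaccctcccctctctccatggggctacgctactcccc
Ltf promoter, chr9:111019042-111019291, + strand: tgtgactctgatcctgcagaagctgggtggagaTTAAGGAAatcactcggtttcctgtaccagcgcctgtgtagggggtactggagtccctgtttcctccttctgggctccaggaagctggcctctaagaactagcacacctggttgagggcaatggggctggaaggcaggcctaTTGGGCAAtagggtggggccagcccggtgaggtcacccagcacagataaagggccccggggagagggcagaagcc
Ngp promoter, chr9:110419558-110419807, + strand: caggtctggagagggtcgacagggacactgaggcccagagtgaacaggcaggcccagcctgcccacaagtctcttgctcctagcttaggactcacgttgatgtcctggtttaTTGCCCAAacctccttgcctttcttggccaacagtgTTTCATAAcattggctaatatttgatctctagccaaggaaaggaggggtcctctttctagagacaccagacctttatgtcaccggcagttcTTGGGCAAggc
S100a9 promoter, chr3:90695722-90695971, - strand: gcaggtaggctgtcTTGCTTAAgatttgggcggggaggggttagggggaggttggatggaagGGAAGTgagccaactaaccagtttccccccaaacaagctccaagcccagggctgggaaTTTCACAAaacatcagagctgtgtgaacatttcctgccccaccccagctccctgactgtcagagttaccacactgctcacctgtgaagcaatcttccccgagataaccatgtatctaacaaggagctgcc

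GAGGAAGT was found upstream of 3 of the 4 primary granule genes, starting 85 bases before the start of *Elane*, 95 bases before *Prtn3* and 224 bases before *Mpo*. Among the 6 late genes it was found only at *S100a8* (172 bases before the start, on the reverse strand). These letters were present in 2.44% of 32851 mouse promoter windows of the same length. The shorter GGAAGT, which lies inside GAGGAAGT, was upstream of 4 of 4 primary and 2 of 6 late genes, against 19.7% of all windows.

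TTNNGNAA showed the reverse division. It was upstream of 5 of the 6 late genes and of 0 of the 4 primary granule genes, against 36.8% of all windows. *Ngp* held 3 matches, *Ltf* and *S100a9* held 2 each, *Lcn2* and *S100a8* held 1 each, and *Camp* held none. In all, 7 motifs were searched on both strands, and the other 4 were as follows. TATAAG, read as a TATA box variant, was 31 bases before the start of *Elane* and 32 bases before that of *Prtn3*, and in no late gene (6.65% of all windows). AACNGNC, a MYB-type motif, was at 3 of 4 primary and 1 of 6 late genes (27.7%). TGTGGT (a RUNX-type motif, 14%) and TATAAA (12.4%) were each at 1 gene of each group. The motifs were chosen after the promoters had been seen, and a match is a description of the letters, not of a bound site. Other forms of the ETS-type and C/EBP-type sites were not searched, so a window without a match may still hold such a site.

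**Figure D1:**
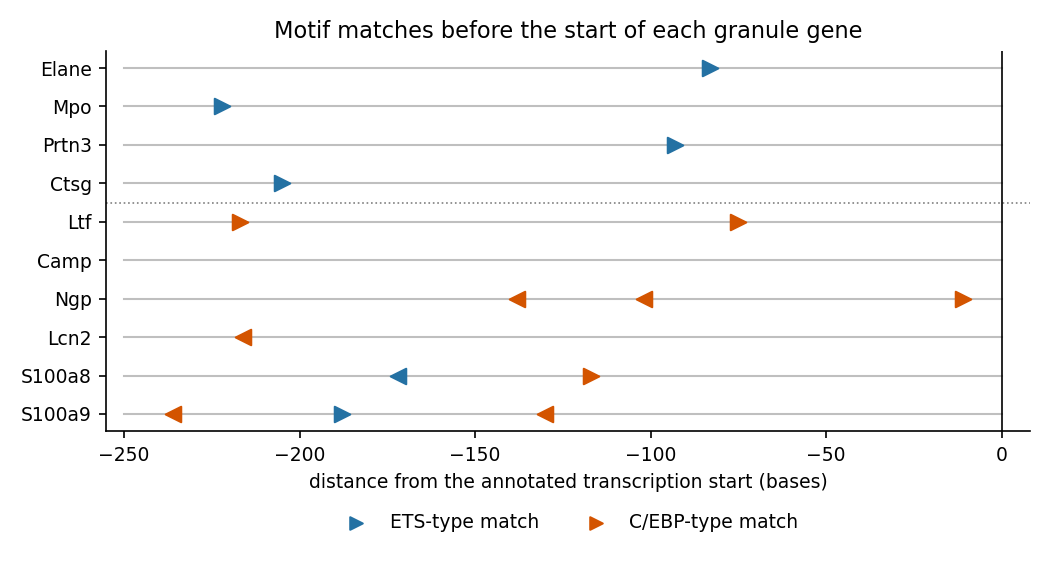
Matches to an ETS-type and a C/EBP-type motif in the 250 bases before the start of each granule gene. The horizontal axis is the distance from the start in bases, each row is a gene, the marker color gives the motif, and the way a marker points gives the strand. Matches to the ETS-type letters GGAAGT lie upstream of 4 of 4 primary and 2 of 6 late genes. Matches to the C/EBP-type letters TTNNGNAA lie upstream of 0 of 4 and 5 of 6. Forms of either site without these letters were not searched.

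The probes were 60 bases long, and no probe of a granule gene shared its sequence with a probe of another gene on the array. Every one of these probes held a forward frame free of stop codons, which does not show that it lies in coding sequence. The sequences of 4 are shown, as the part of the transcript that each read. The *Prtn3* probe spans 817 bases of the genome (chr10:79343869-79344685, mm9, the build of the array design) and the *Ngp* probe 549 bases (chr9:110324266-110324814), so both cross an exon junction and read spliced RNA. The *Ltf* probe (chr9:110942873-110942932) and the *S100a8* probe (chr3:90473778-90473837) each lie in 1 unbroken stretch.
Prtn3 probe: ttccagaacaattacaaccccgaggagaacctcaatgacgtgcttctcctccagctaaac
Ltf probe: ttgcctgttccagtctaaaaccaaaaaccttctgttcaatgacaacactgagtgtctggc
Ngp probe: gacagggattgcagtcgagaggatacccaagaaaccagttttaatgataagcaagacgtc
S100a8 probe: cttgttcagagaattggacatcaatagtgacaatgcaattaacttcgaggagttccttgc

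Signals are given as the background-corrected scanner intensity, in arbitrary units, with the error that the scanner software assigns to the spot. Levels are log2 signals relative to the 75th percentile of the probes on the same array. They describe 1 probe across the 2 arrays, and a level summed over a list, which its brightest probes dominate, is likewise read only between the arrays. On both arrays all 12 probes were well above background and none was saturated.

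Among the primary granule genes, *Elane*, neutrophil elastase, read 129 ± 12.97 in *p38α+/+* cells and 38.8 ± 4.02 on the array labelled *p38αΔ/Δ*. Its level was therefore lower on the second array, at -1.57 against -0.15, a difference of -1.41 ± 0.21 or 2.67-fold. No other granule gene was lower by 2-fold or more, and 545 of the 17194 genes (3.17%) were lower by more. *Elane* was read at chr10:79350902-79350961 (mm9).

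*Prtn3* encodes proteinase 3, the protease whose gene lies next to *Elane*. It read 40.4 ± 4.24 and 23.2 ± 2.51, a difference of -0.48 ± 0.22 on the log2 scale (1.40-fold lower). The direction was that of *Elane* and the size about 2.22 times its scanner error, the smallest such ratio among the 10 genes.

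*Mpo*, the peroxidase of the primary granule, went the other way at both of its probes. The brighter probe (chr11:87617840-87617899) read 113 ± 11.4 and 185 ± 18.5, which is 2.03-fold higher on the array labelled *p38αΔ/Δ* (1.02 ± 0.20). The dimmer probe (chr11:87615121-87615180) read 47.8 ± 4.95 and 63.6 ± 6.43, which is 1.66-fold higher (0.73 ± 0.21). The probes thus shared a direction, but only the brighter passed 2-fold, and the mean of both did not (0.88).

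*Ctsg*, cathepsin G, was read at chr14:56718795-56718854. Its signal was 91.8 ± 9.30 and 145 ± 14.6, which is 1.97-fold higher (0.98 ± 0.21), just under 2-fold. The 4 primary granule genes thus split into 2 higher and 2 lower, and their median difference of 0.25 describes no single one of them. In the marker lists the study used, *Mpo* stands among the genes of young HSCs and *Prtn3* among those of aged HSCs.

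**Figure D2:**
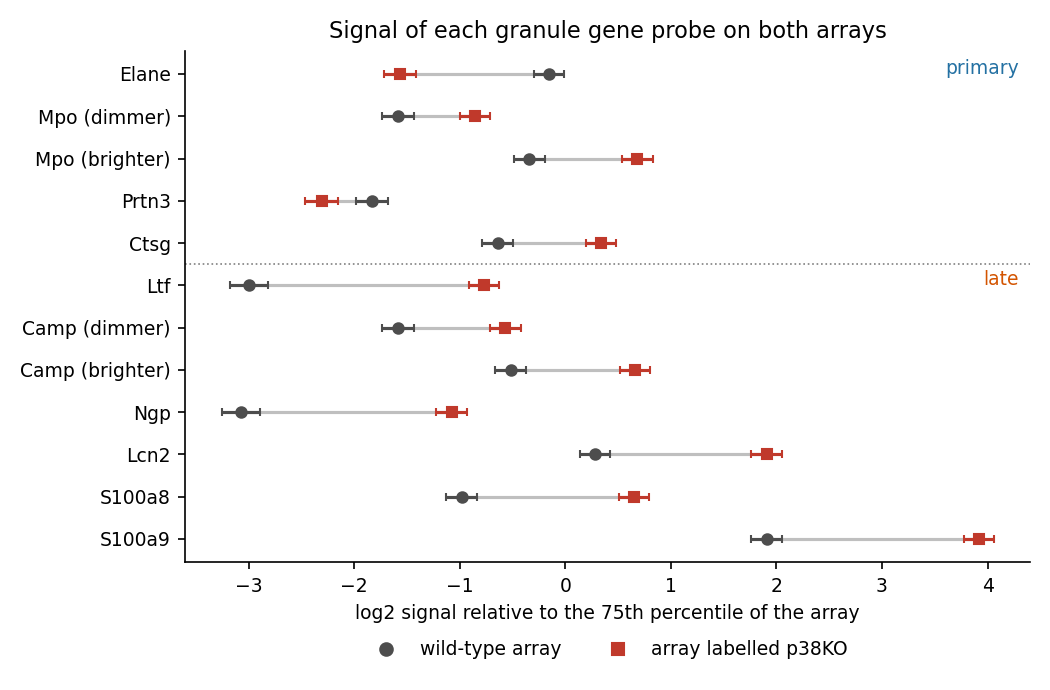
Log2 signal of each granule gene probe relative to the 75th percentile of its array (horizontal axis), in *p38α+/+* cells (circles) and for the array labelled *p38αΔ/Δ* (squares, p38KO in the key). Bars are the error assigned by the scanner software. Squares lie right of circles at every late probe, and at *Mpo* and *Ctsg*, but left of them at *Elane* and *Prtn3*.

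The 6 late genes were all higher on the array labelled *p38αΔ/Δ*. *Ltf*, lactoferrin, the iron-binding protein that defines the secondary granule, read 17.9 ± 2.22 and 67.5 ± 6.82. This was the largest difference among the granule genes (2.23 ± 0.23, 4.69-fold), and 56 of all genes (0.326%) were higher by more. The *p38α+/+* spot had a raw mean of 39.8 over a local background of 16, so the low side of this difference lay near the background.

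*Ngp*, a cystatin-like secondary granule protein, also had a dim *p38α+/+* spot, with a raw mean of 38.5 over 16. Its signal was 17.0 ± 2.15 and 54.5 ± 5.54, which is 3.99-fold higher (1.99 ± 0.23). *Ltf* and *Ngp* were the 2 genes most changed by another background correction, as given below.

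*Camp* encodes the cathelicidin, an antimicrobial peptide precursor, and was read by 2 probes that overlap over 50 bases with 2 mismatches, so they are not separate readings of the transcript. The brighter (chr9:109749911-109749970) read 100.1 ± 10.1 and 182 ± 18.2, which is 2.26-fold higher (1.18 ± 0.20). The dimmer (chr9:109749901-109749950) read 47.8 ± 4.96 and 77.5 ± 7.81, which is 2.02-fold higher (1.01 ± 0.21). *Camp* had the smallest difference of the late genes.

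*Lcn2*, the siderophore-binding lipocalin, read 174 ± 17.5 and 432 ± 43.2 at chr2:32240199-32240258, which is 3.08-fold higher (1.62 ± 0.20). *S100a8* and *S100a9* encode the chains of calprotectin, which act as a pair. *S100a8* read 72.7 ± 7.38 and 181 ± 18.1 (3.10-fold, 1.63 ± 0.21). *S100a9*, at chr3:90496573-90496632, read 537 ± 53.8 and 1742 ± 174 (4.04-fold, 2.01 ± 0.20). Both chains were thus higher, and *S100a9* is the late gene whose low side lay furthest from the background, with a raw mean of 651 over 18.

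In all, 7 of the 10 granule genes were higher by 2-fold or more on the array labelled *p38αΔ/Δ*, as were 4.09% of all genes, and 1 was lower by 2-fold or more, as were 6.71% of all genes. Since these values chose the genes, nothing is read from the counts. The late genes had a median difference of 1.81 (range 1.18 to 2.23) and the primary granule genes 0.25 (range -1.41 to 1.02), beside -0.03 over all genes. The gap between the group medians was 1.56. The sum of the levels of the 6 late genes, in units of the 75th percentile, was 6.41 in *p38α+/+* cells and 23.1 on the other array, and 2.67 and 7.96 without *S100a9*, its largest part. That of the 4 primary granule genes was 2.61 and 3.41, and 1.82 and 1.80 without *Mpo*. In a bulk sample, a few cells with much of a transcript and many cells with a little cannot be told apart.

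At the brightest probe of each gene the groups did not overlap, but their edges met. The dimmer *Camp* probe (1.01) lay just below the brighter *Mpo* probe. Of all genes, 2.72% were higher by more than *Camp* and 3.83% by more than *Mpo*. These values chose the genes, so nothing is read from the separation. *Camp* (1.18) exceeded *Mpo* (1.02) by 0.15, which is 0.534 of the combined scanner error, and *Mpo* exceeded *Ctsg* by 0.04. Down the order *Ltf*, *S100a9*, *Ngp*, *S100a8*, *Lcn2*, *Camp*, *Mpo*, *Ctsg*, *Prtn3*, *Elane*, only the last 2 steps were more than 2 times the combined scanner error, at 4.88 times from *Ctsg* to *Prtn3* and 3.09 times from *Prtn3* to *Elane*.

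**Figure D3:**
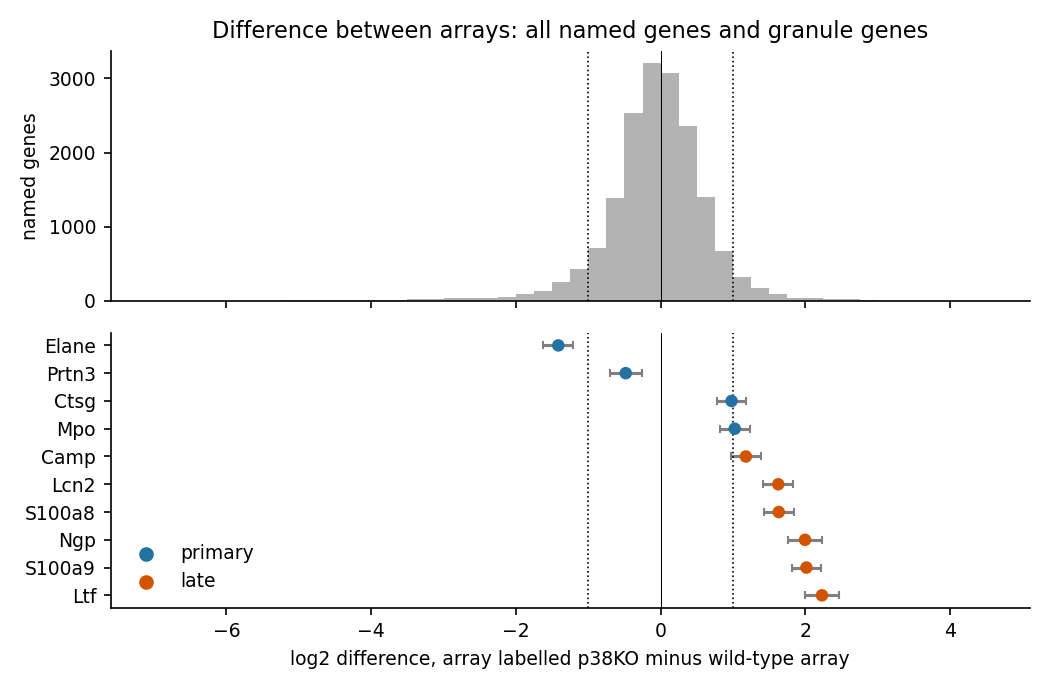
Log2 difference of each granule gene (array labelled *p38αΔ/Δ*, p38KO in the plot, minus *p38α+/+*), beside the histogram of the same difference over 17194 named genes. Bars on the points are the scanner error of the difference. The 6 late genes lie between 1.18 and 2.23 and the 4 primary granule genes between -1.41 and 1.02, while the middle 50% of all genes lies between -0.38 and 0.33.

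The neighbours of the granule genes on their chromosomes were taken as the nearest measured gene on each side in the gene order of GRCm38.p6. The 16 that are not granule genes ranged from -1.47 to 1.03 with a median of 0.12. *Elane* and *Prtn3*, both lower, adjoin each other, and the gene before *Prtn3*, *Plppr3*, was higher by 1.03 while *Med16* after *Elane* differed by 0.15. *Ctsg* lies between *Cma2*, a mast cell chymase gene that was higher by 0.98, and *Gzme*, a granzyme gene that was lower (-1.47). *Lpo*, the lactoperoxidase gene beside *Mpo*, differed by 0.32. *Ltf*, *Camp* and *Ngp* lie on 1 chromosome. The neighbours of *Camp* and *Ngp* differed by -0.23 to 0.17, and those of *Ltf* by 0.57 (*Rtp3*, dim in *p38α+/+* cells) and -0.64 (*Ccrl2*).

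Other genes of the primary granule program went both ways. The list held 7 genes, all well above background on both arrays, of which 3 were higher and 4 lower, with a median of -0.14. Over all genes 47.7% were higher. *Ms4a3*, a membrane protein of granulocyte and monocyte progenitors, was 2.29-fold higher (1.19, or 0.62 with another background correction). *Prss57*, a further granule serine protease, was higher by 0.96 (0.40 with that correction). Both lay with *Mpo* and *Ctsg*. *Ctsc*, which activates the granule proteases, differed by -0.24 (its other probe by 0.15), and *Srgn*, the proteoglycan that packs them, by -0.14. *Cst7* differed by -0.43 and the granule membrane protein *Cd63* by -0.53. The lysosomal *Gusb* differed by 0.02 (its other probe by -0.28).

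Other late genes were mixed. Of 21 listed, 15 were measured, 9 higher and 6 lower (47.7% of all genes were higher), with a median of 0.42. Higher by 2-fold or more were 5, beside 4.09% of all genes, but 3 of them passed the background filter only through the array where they were high. With normexp correction, with the deposited normalized values, or with probes above background on both arrays, 2 were. Over all genes, 49 of 17196, 502 of 15658 and 499 of 15660 were higher by as much in these settings, in that order. *Chil3*, a chitinase-like protein of maturing neutrophils and macrophages, was 14.6-fold higher (3.86), *Cybb*, the catalytic chain of the phagocyte oxidase, was higher by 1.40, and *Hp*, haptoglobin, by 0.99. In *p38α+/+* cells *Retnlg*, *Wfdc21* and *Mmp8* were not well above background, and on the other array they were at least 12.8-fold, 7.78-fold and 2.73-fold higher. Against these, *Lyz2*, lysozyme, differed by -0.96, *Cyba*, the partner chain of *Cybb*, by -0.61, and *Padi4* and *Tcn2* each by -0.52. On the array labelled *p38αΔ/Δ*, *Ly6g*, the Gr-1 antigen of mature neutrophils, was not well above background and at least 2.80-fold lower. *Itgam*, which encodes a chain of Mac-1, was well above background on both arrays and differed by 0.42 at its brightest probe. Its probes ranged from -0.42 to 0.88. Neither array had *Mmp9*, *Mmp25*, *Olfm4*, *Adam8*, *Orm1* or *Stfa2l1* well above background.

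The regulators of the granule program had a median of 0.01, with 10 of 19 measured genes higher, beside 47.7% of all genes. *Cebpe*, the factor of the secondary granule program, differed by -0.80, but by 0.09 with another background correction. *Cebpa*, which starts the granulocyte program, differed by -0.58, *Cebpb* by -0.92, *Spi1* (PU.1, an ETS-family factor) by -0.54 and the repressor *Gfi1* by -0.88. These last 4 were lower with that correction too, by values from -0.88 (*Cebpb*) to -0.29 (*Spi1*). *Klf5* (1.54) and *Irf8* (1.43), the latter a factor of the monocyte branch, were at least 2-fold higher, as were 4.09% of all genes. *Hoxa9*, a factor of stem and progenitor cells, was 2.23-fold lower at its brightest probe (-1.15, or -0.90 with normexp correction). Its other probe differed by -0.37.

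*Rara*, a retinoic acid receptor gene, was at least 8.95-fold lower at its brightest probe, with the lower side not well above background. However, another of its probes differed by 0.14. At their brightest probes, the remaining regulators lay between -0.39 (*Stat3*) and 0.69 (*Cux1* and the GM-CSF receptor chain *Csf2ra*). The other *Stat3* probe differed by -0.82, and the *Cux1* probes ranged from 0.03 to 0.92. *Csf3r*, the G-CSF receptor, was at 0.44, *Csf2rb* at 0.12, *Cebpg* at 0.52 and *Cebpd* at 0.07. *Myb* was at 0.04, *Runx1* at 0.01 and its partner *Cbfb* at -0.27. Neither array had *Lef1* well above background.

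Among the inhibitors of the granule proteases and the receptors of the granule and S100 proteins, *Slpi* had the largest difference. This secreted inhibitor of elastase and cathepsin G was 4.71-fold higher (2.24). *Serpinb1a*, the intracellular inhibitor of the same proteases, differed by 0.37. *Ager* and *Tlr4*, receptors of the S100 proteins, differed by 0.26 and -0.08, and *Slc22a17*, a lipocalin 2 receptor, by 0.64. *Lrp1*, which takes up lactoferrin, differed by 0.76 at its brightest probe but by -0.32 at another. *Cd14*, the co-receptor of *Tlr4*, differed by 0.92. In this list 7 of 10 measured genes were higher, beside 47.7% of all genes, and the median was 0.32.

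The other S100 genes had a median of -0.06, beside -0.03 over all genes, of which 47.7% were higher. Of 10 measured, 3 were higher and 7 lower, with 1 past 2-fold each way, beside 4.09% of all genes higher and 6.71% lower by as much. *S100a5* was higher by 1.02, but by 0.37 with normexp correction, and *S100a3* was higher by 0.53. *S100a6* was 2.65-fold lower (-1.41, or -1.39 with that correction), whereas *S100a4* differed by -0.83 and *S100a1* by -0.33. *S100a10*, *S100a11* and *S100a14* lay near 0, at -0.05, -0.07 and -0.03.

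With only 2 arrays, the likeness of a gene to a group is the closeness of 1 difference to the group's median. Of 56 genes from the lists above, *Ager*, *S100a16* (0.14) and *Serpinb1a* lay nearest to the primary granule median, at distances of 0.01 to 0.13 that are within the scanner error of a difference and from a median that none of the 4 genes is near. *Klf5*, *Irf8* and *Cybb* lay nearest to the late median, and each was below it by 0.28 to 0.42. These genes were dim in *p38α+/+* cells, at levels of -3.53, -4.11 and -3.38. With normexp correction they differed by 0.54, 0.47 and 0.54, beside a late median of 1.05. *Cux1* (0.71) and *Hp* (0.65) were then nearer to it, so this likeness depended on the background correction.

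**Figure D4:**
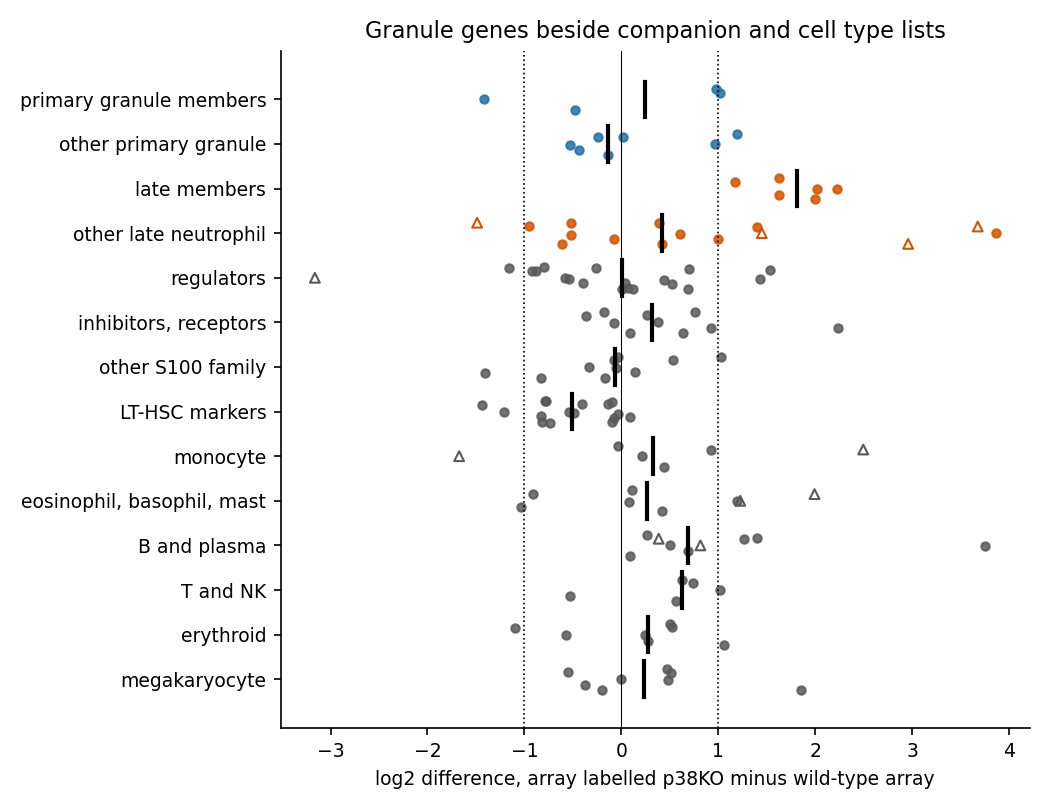
Log2 difference (array labelled *p38αΔ/Δ*, p38KO in the plot, minus *p38α+/+*) of each measured gene in the granule gene groups and in the other lists. Points are genes, open triangles are bounds for genes not well above background on 1 array, and black bars are list medians. The median is 1.81 for the 6 late genes, 0.25 for the 4 primary granule genes, 0.42 for the other late genes and -0.51 for the LT-HSC markers.

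The levels of markers of the sorted cells and of other blood cells are given beside those of the granule genes. All 16 LT-HSC markers were well above background on both arrays, and 15 of 16 were lower on the array labelled *p38αΔ/Δ* (median -0.51, summed level 209 and 169.9 in units of the 75th percentile). Over all genes, 8989 of 17194 were lower. *Mecom* (-1.44, with another probe at 0.62) and *Procr* (-1.22), both stem cell genes, were at least 2-fold lower, as were 6.71% of all genes. With normexp correction *Procr* (-1.26) was still lower by as much, as were 125 of 17196 genes, but *Mecom* (-0.93) was not. Markers of mature neutrophils gave 5 measured of 7, with 4 higher and 1 (*Ly6g*) lower, and with *Cxcr2* and *Mmp9* not well above background on either array. Of the 5 measured, 2 were higher by 2-fold or more (*Retnlg* and *Mmp8*), beside 4.09% of all genes, and 1 was lower by as much, beside 6.71%. These are bounds, and none is left among probes above background on both arrays. All 5 also stand in the lists above. Of the summed level of 207 and 281, *Csf3r* gives all but 0.387 and 0.922.

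B and plasma cell markers were higher in 9 of 9 measured genes, but 2 passed the background filter only through the array where they were high. The median of the 9 was 0.69 (0.28 with normexp correction) and their summed level was 3.98 and 19.3. *Jchain* (3.75), the joining chain of secreted antibodies, carries most of that sum, which is 2.84 and 4.08 without it. Next came *Mzb1* (1.41) and *Cd79a* (1.26). Monocyte markers were higher in 4 of 6 (summed level 29.3 and 34.1, of which *Csf1r* gives all but 0.417 and 0.632). Another *Csf1r* probe differed by -3.29, and the monocyte median was 0.33, or 0.01 with the mean of probes. Markers of eosinophils, basophils and mast cells were higher in 6 of 8 (2.97 and 3.95), but 2 passed the filter only through the array where they were high. Among the monocyte markers this held for 1 that was higher, and 1 that was lower passed only through the *p38α+/+* array. T and NK cell markers were higher in 4 of 5 (6.61 and 10.02), erythroid markers in 5 of 7 (11.3 and 14.9) and megakaryocyte markers in 4 of 8 (50.9 and 45.3). Of all genes, 47.7% were higher. The lineage antibodies are directed against several of these cell types, and the part of any of them in the difference of the late genes was not tested.

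The direction of all 10 granule genes was the same with each of the 9 other ways of processing that were tried, but their size was not. With normexp background correction (offset 50), which raises dim signals by construction, the late median fell from 1.81 to 1.05 and *Ltf* and *Ngp* were higher by 0.96 and 0.83. *S100a9*, with its bright probe, was then the largest at 1.81. With this correction 3 granule genes (*Lcn2*, *S100a8* and *S100a9*) were at least 2-fold higher, as were 49 of all 17196 genes. As many as 125 of all genes were lower by 2-fold or more, and 0 granule genes, with *Elane* at -0.69 and *Prtn3* at -0.08. *Chil3*, *Slpi* and *Jchain* remained past 2-fold (2.40, 1.62 and 3.29), whereas *Cybb*, *Klf5* and *Irf8* did not (0.54, 0.54 and 0.47).

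**Figure D5:**
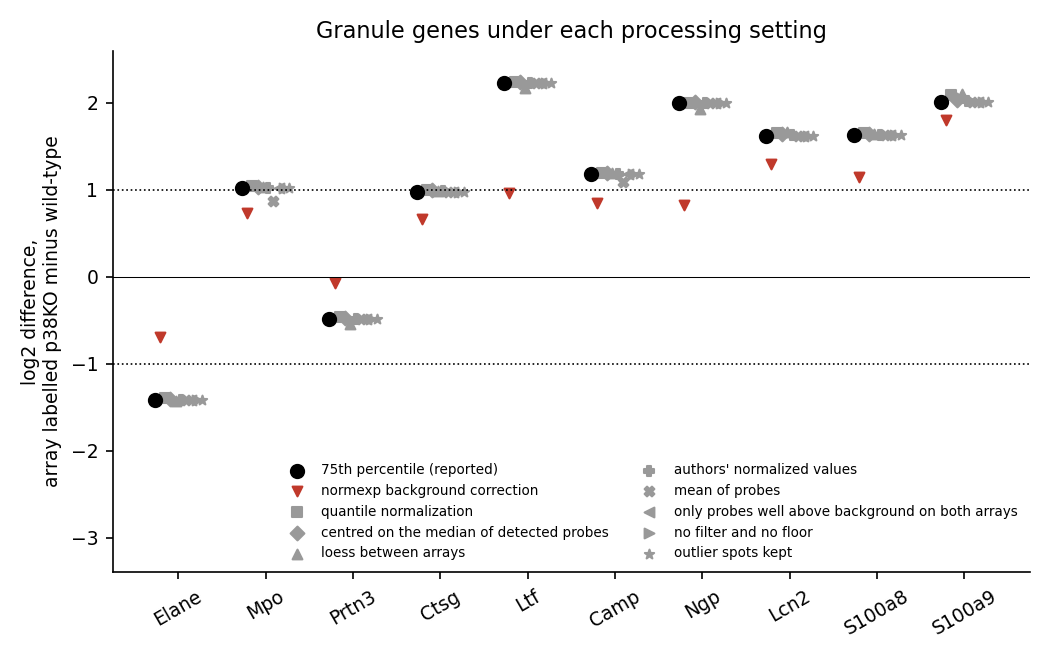
Each granule gene under the main processing and the 9 alternatives. The vertical axis is the log2 difference (array labelled *p38αΔ/Δ*, p38KO in the plot, minus *p38α+/+*), the horizontal axis lists the genes, and the marker shape gives the way of processing. Under normexp correction (triangles pointing down) late genes lie from 0.83 to 1.81 and primary granule genes from -0.69 to 0.73, nearer to 0 than under the others.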

How the data were processed

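RNA of LT-HSCs from 2-year-old mice was hybridized to single-color Agilent arrays, 1 for *p38α+/+* and 1 for *p38αΔ/Δ*, both on 1 slide. The authors deposited the scanner intensity of each of 62976 spots, read with Agilent Feature Extraction 11.5.1.1 according to the submitters' processing notes, corrected for background but not scaled between arrays. They also deposited normalized log2 values of 35795 probes, which equal the log2 signal minus 1 constant per array (7.16 and 6.84).

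Here, control spots and outlier spots were left out, log2 signals were averaged over the spots of each probe, and the 75th percentile of each array (7.16 and 6.85) was subtracted. The brightest probe stood for a gene. Probes were named through a RefSeq table (GRCm38.p6), which named 31778 of 55662 probes and 22555 genes. Of these, 17194 had a signal well above background on 1 array or both, 15646 of them on both. A dim side was raised to the array's lowest signal well above background, so a fold with such a side is a bound. Spots well above background were 68.1% and 69.2% of 59305. A call is a 2-fold difference, with no test.

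The scanner error of a log2 difference was about 0.2. The median SD between repeated spots of a probe (274 probes with at least 5 spots) was 0.09 and 0.098 on the 2 arrays, or 0.13 for a difference. The number of arrays limits the precision.

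The granule genes, the gene lists (written from general knowledge) and the rule for named genes were chosen with earlier results of these data known. That rule took *Mapk14*, all granule genes, all regulators, the 3 largest differences in each direction of every list, the 3 genes nearest each group median and the chromosomal neighbours. Other genes, and those given as bounds, were named after their values were seen. The alternatives were normexp background correction (offset 50), quantile, median and loess (span 0.3) scaling, the deposited normalized values, the mean of a gene's probes, a filter on background for both arrays at once, no filter or floor, and outlier spots kept. The calculation was run on simulated data with small added noise, in which 200 brighter probes among 37807 were changed by 2 on the log2 scale. It recovered 200 of 200 at the 2-fold call. A change of that size passes the call with ease, so this checks the code only. It says nothing of dim probes or of differences near 2-fold. Promoter sequences were from RefSeq (GRCm38.p6). Python 3.11.15, numpy 2.4.6, pandas 2.3.3, R 4.3.3 and limma 3.58.1 were used.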

Additional observations from a re-analysis of the deposited data

How the results depend on the processing

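No granule gene changed sign under the 9 alternatives, and 79 of 90 values of single granule genes moved by less than 0.13, the spread between repeated spots. The gap between the late and primary medians was 0.76 to 1.62. With normexp correction the late median was 1.05, the gap 0.76, and 3 granule genes were at least 2-fold higher and 0 lower, against 7 and 1. Over all genes, 49 were then at least 2-fold higher and 125 lower, against 704 and 1154, and without a filter or floor 1533 and 1782. In that last case, which adds genes not well above background on either array, the median of the other late genes was -0.058, against 0.42. The primary median stayed between 0.20 and 0.29. No scaling moved the median of all genes by more than 0.1.

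With 1 array per genotype no replicate can be left out and no value has a between-mouse error. No paired analysis was possible because each group held 1 array and no result came from a test. Probes near the background, *Ltf* and *Ngp* on the *p38α+/+* array among them, carry the differences that depend most on the background correction.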
